A study of Homo sapiens with 6 samples.

Results

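The epidermal differentiation complex is a stretch of human chromosome 1 in which the genes of the cornified cell envelope lie side by side. Its members were taken as the protein-coding genes of GENCODE with a start site in chr1:151950000-153650000 (hg19), a window of 1.7 Mb that holds 66 of the 20176 protein-coding genes. By symbol they were grouped as 19 LCE, 16 S100, 11 SPRR, 8 single envelope, 7 filaggrin family and 2 PGLYRP genes. A further 3 genes at the distal edge fell in none of these groups. The group name single envelope genes is a label, and not every gene under it, such as SMCP, is a gene of the cornified envelope. The merged peaks of all libraries gave 41 regions in this window, of 23972 in the genome. Chromatin accessibility had been measured by ATAC-seq, in which the Tn5 transposase cuts open DNA, in HET-1A, a non-cancerous oesophageal epithelial line grown in BEBM medium with its additives, and in KYSE-150 and KYSE-30, lines of oesophageal squamous cell carcinoma (ESCC) grown in RPMI/F12 with serum and antibiotics. Each line had 2 libraries, named here by the library numbers of the labels: 1 and 2 for HET-1A, 7 and 8 for KYSE-150, and 4 and 6 for KYSE-30. Medium and line cannot be told apart, and the labels name no treatment. The peak lists hold called peaks of accessible DNA, not transcript levels.

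When squamous cells of the skin, mouth or oesophagus leave the basal layer, they switch on genes of this complex in sequence and build a tough protein shell under the plasma membrane. Involucrin (IVL) and loricrin (LORICRIN) are scaffold proteins of this shell, the small proline-rich proteins (SPRR) and late cornified envelope proteins (LCE) are cross-linked to it by transglutaminases, and filaggrin and its relatives bundle keratin filaments or fill the envelope. The S100 genes encode small calcium-binding proteins, several of which are used as inflammation or tumour markers, and AP-1 is a dimer of FOS and JUN proteins known to act on SPRR and IVL promoters in keratinocytes.

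The sequences at which the results turn are given first, all from chromosome 1 of hg19 and on the forward strand unless stated, with the AP-1 core (TGACTCA or TGAGTCA) in capitals. The first 2 are shared stretches of peaks that were called in several libraries and hold this core, at chr1:152020662-152020816 upstream of the outermost annotated start of S100A11 and chr1:153005521-153005742 downstream of SPRR1B.
S100A11 upstream start: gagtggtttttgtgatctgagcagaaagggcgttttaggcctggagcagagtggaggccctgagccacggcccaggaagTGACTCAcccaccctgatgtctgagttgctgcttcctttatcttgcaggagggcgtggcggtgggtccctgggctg
SPRR1B downstream: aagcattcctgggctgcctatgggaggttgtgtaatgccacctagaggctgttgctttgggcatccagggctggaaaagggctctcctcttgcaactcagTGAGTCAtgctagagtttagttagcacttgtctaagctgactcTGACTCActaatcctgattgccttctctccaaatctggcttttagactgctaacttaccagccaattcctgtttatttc

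Over the window, 16 of the 41 regions held the AP-1 core. The next 4, which all hold it, were taken from the regions with a peak in a single library, at members named below. They lie at chr1:152878805-152878984 upstream of IVL (KYSE-30 library 6), chr1:151964982-151965161 at an internal start of S100A10 (KYSE-30 library 6), chr1:153539120-153539299 at a start of S100A2 (HET-1A library 2) and chr1:152939717-152939896 upstream of SPRR4 (HET-1A library 2).
IVL upstream: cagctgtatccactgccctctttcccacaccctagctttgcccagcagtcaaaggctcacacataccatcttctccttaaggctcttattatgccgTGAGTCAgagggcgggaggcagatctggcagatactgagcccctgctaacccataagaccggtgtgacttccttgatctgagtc
S100A10 internal start: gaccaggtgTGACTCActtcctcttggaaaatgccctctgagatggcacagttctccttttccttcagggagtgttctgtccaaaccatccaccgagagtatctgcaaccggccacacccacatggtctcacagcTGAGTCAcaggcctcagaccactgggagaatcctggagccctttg
S100A2 start: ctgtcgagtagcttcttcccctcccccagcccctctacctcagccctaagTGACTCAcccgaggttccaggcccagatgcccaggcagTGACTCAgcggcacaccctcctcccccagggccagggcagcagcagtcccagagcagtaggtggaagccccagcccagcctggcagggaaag
SPRR4 upstream: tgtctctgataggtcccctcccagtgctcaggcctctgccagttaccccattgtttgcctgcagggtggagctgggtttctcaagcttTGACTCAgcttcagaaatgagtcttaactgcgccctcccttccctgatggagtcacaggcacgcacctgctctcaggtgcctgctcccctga

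The last 3 are start regions of SPRR genes that hold both the AP-1 core and a TATA box (TATAAA), both in capitals, and had no peak within 3 kb in any library. They lie at chr1:152956357-152956566 (SPRR1A), chr1:153029979-153030188 (SPRR2A, printed on the reverse strand, on which the gene lies) and chr1:152974025-152974234 (SPRR3).
SPRR1A start: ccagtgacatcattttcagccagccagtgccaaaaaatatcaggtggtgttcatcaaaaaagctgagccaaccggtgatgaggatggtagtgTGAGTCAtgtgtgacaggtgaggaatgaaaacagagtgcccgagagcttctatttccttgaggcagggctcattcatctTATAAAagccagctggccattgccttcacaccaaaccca
SPRR2A start: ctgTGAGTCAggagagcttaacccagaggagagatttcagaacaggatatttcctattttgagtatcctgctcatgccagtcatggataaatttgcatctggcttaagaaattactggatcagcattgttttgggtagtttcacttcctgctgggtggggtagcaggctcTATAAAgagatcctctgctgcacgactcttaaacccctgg
SPRR3 start: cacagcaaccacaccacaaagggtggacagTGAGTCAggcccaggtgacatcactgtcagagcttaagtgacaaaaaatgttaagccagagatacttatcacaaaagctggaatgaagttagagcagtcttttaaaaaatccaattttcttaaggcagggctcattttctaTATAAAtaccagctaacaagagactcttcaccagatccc

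The peak lists differed in length far more within a line than the window could resolve. HET-1A library 1 listed 168 peaks and library 2 listed 15979, KYSE-150 libraries 7 and 8 listed 547 and 259, and KYSE-30 libraries 4 and 6 listed 1255 and 11671. The genome background, the smallest local background of a library, was lowest in KYSE-30 library 6 with 1.49 tags per 200 bp and highest in HET-1A library 2 with 3.34, while HET-1A library 1 had 1.88, so the list lengths did not follow it. Because 2 libraries against 2 cannot give an exact two-sided permutation p under 0.33, no test between lines was run, and all intervals are Wilson 95% intervals that cover counting error only.

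In the window, HET-1A library 2 had 31 called peaks and HET-1A library 1 had none. The KYSE-30 libraries 6 and 4 had 17 and 2, and the KYSE-150 libraries 7 and 8 had 1 and none. Thus 48 of the 51 peaks came from the 2 longest lists, and no statement on a line rests on more than 1 well-filled library. As a share of its list the window took 0.194% in HET-1A library 2 (0.137 to 0.275), 0.146% in KYSE-30 library 6 (0.0910 to 0.233), 0.159% in KYSE-30 library 4 (0.0437 to 0.579) and 0.183% in KYSE-150 library 7 (0.0323 to 1.03). These 4 intervals overlapped. The upper bounds of the 2 libraries without a peak were 2.24% in HET-1A library 1 and 1.46% in KYSE-150 library 8, above all 4 of these shares. The window therefore could not be told apart between the libraries by its share of peaks. Per Mb it held 18.2 peaks in HET-1A library 2 against 5.16 over the genome, and 10 in KYSE-30 library 6 against 3.77. The genome rate is not matched for gene content. Flanks of the same length held 28.2 (proximal) and 29.4 (distal) per Mb in HET-1A library 2, more than the window. In KYSE-30 library 6 they held 10.6 and 8.24.

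**Figure D1:**
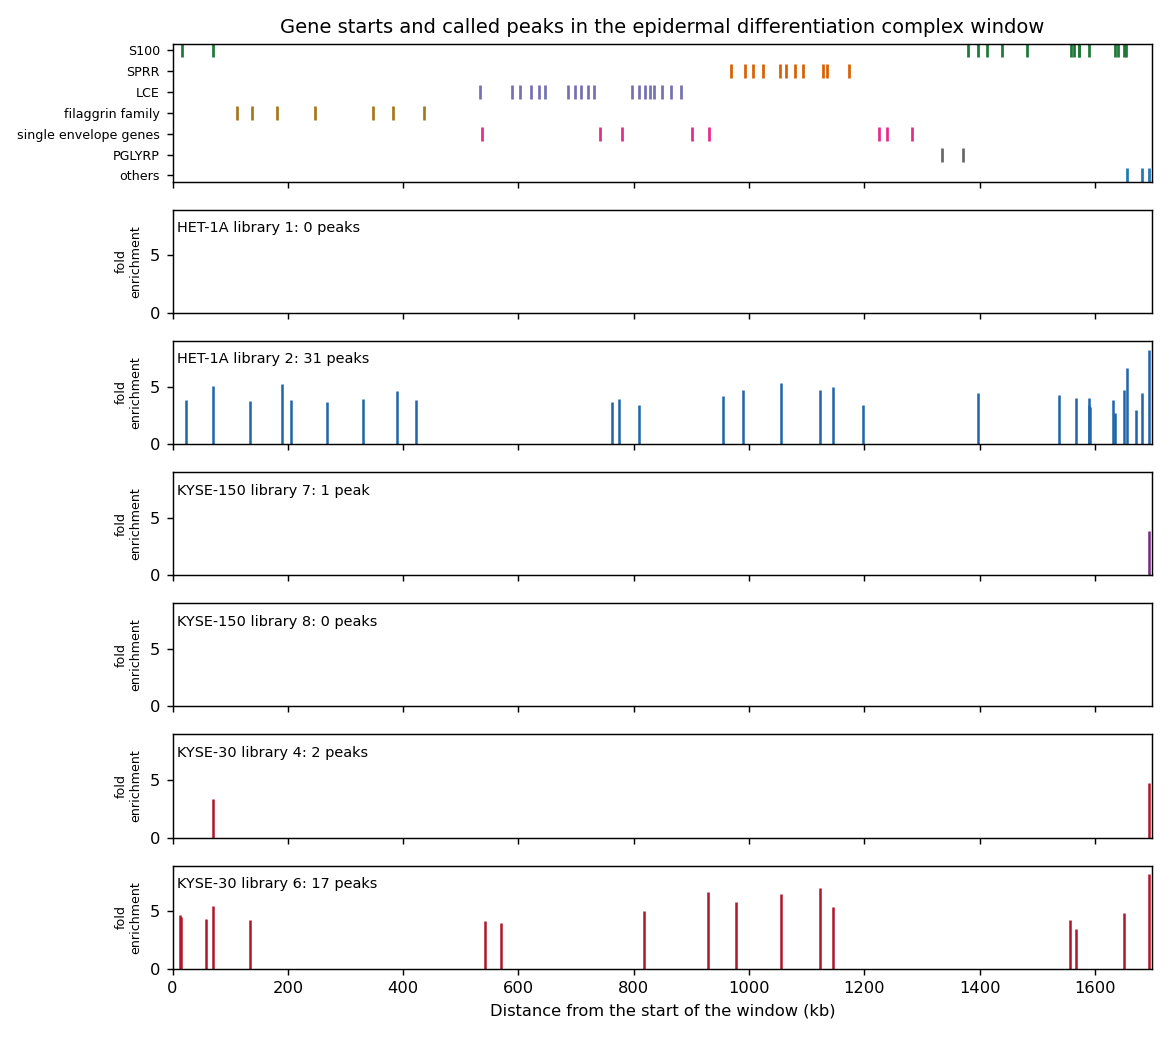
Distance from the start of the window in kb (x axis) with gene starts of the 66 members by group (top) and, for each of the 6 libraries, the fold enrichment of every called peak at its summit (vertical lines, linear axis). The 31 peaks of HET-1A library 2 and the 17 of KYSE-30 library 6 leave the stretch from LELP1 to PGLYRP4 empty, and both end on the tall peak of ILF2 at the distal edge.

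A member was counted when a peak lay within 3 kb of any of its transcript start sites. This held for 13 members in HET-1A library 2 (19.7%, 11.9 to 30.8) beside 35.3% of all protein-coding genes, and for 10 members in KYSE-30 library 6 (15.2%, 8.44 to 25.7) beside 28.6%. It held for 2 members in KYSE-30 library 4 (3.03%, beside 3.87% of all genes), 1 member in KYSE-150 library 7 (1.52%, beside 1.79%), and no member in HET-1A library 1 (beside 0.0942%) or KYSE-150 library 8 (beside 0.362%). In the 2 longest lists the members' share was thus under that of all genes and its interval did not reach it, whereas in the other 4 the members' intervals covered the background. Over all libraries 17 members had such a peak and 49 had none.

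The members' start regions differ from those of most genes in base composition. Taking a start as CpG-rich when the 1 kb around it has a GC content of at least 50% and an observed over expected CpG ratio of at least 0.6, only S100A10, CHTOP, SNAPIN and ILF2 were CpG-rich, 6.06% of the members against 57.5% of all genes. The median CpG ratio was 0.130 over the members and 0.685 over all genes. By group the median was 0.0904 in SPRR, 0.0945 in the single envelope genes, 0.0992 in the filaggrin family, 0.120 in PGLYRP, 0.130 in LCE, 0.185 in S100 and 0.769 in the 3 other genes. Among the 62 CpG-poor members, 10 had a peak in HET-1A library 2 (16.1%, 9.0 to 27.2), beside 20.3% of CpG-poor genes. In KYSE-30 library 6 it was 8 of them (12.9%, 6.69 to 23.4), beside 15.9%. Of the 4 CpG-rich members, 3 had a peak in HET-1A library 2 (75%, beside 46.5% of CpG-rich genes) and 2 in KYSE-30 library 6 (50%, beside 38.1%). Taken as a single set, the members' share within either class of start region was therefore not distinguishable from that of other genes at this count. The set mixes unlike groups, however. Of the 10 CpG-poor members with a peak in HET-1A library 2, 8 were S100 genes, 1 was an LCE gene and 1 an SPRR gene. The pooled share thus does not hold for each group, and the groups are given separately below.

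**Figure D2:**
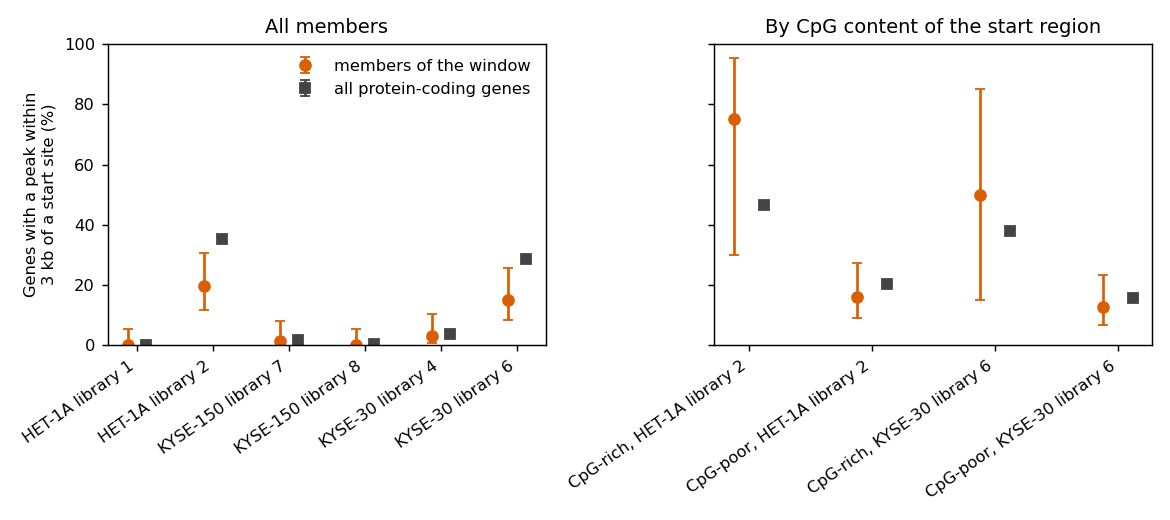
Share of genes with a peak within 3 kb of a start site (%) in each library for the 66 members (circles) and all 20176 protein-coding genes (squares), with Wilson 95% intervals as bars. Left, all members, with 19.7% against 35.3% in HET-1A library 2 and 15.2% against 28.6% in KYSE-30 library 6. Right, the 2 longest lists split by CpG content, where the members' intervals include the background.

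**Figure D3:**
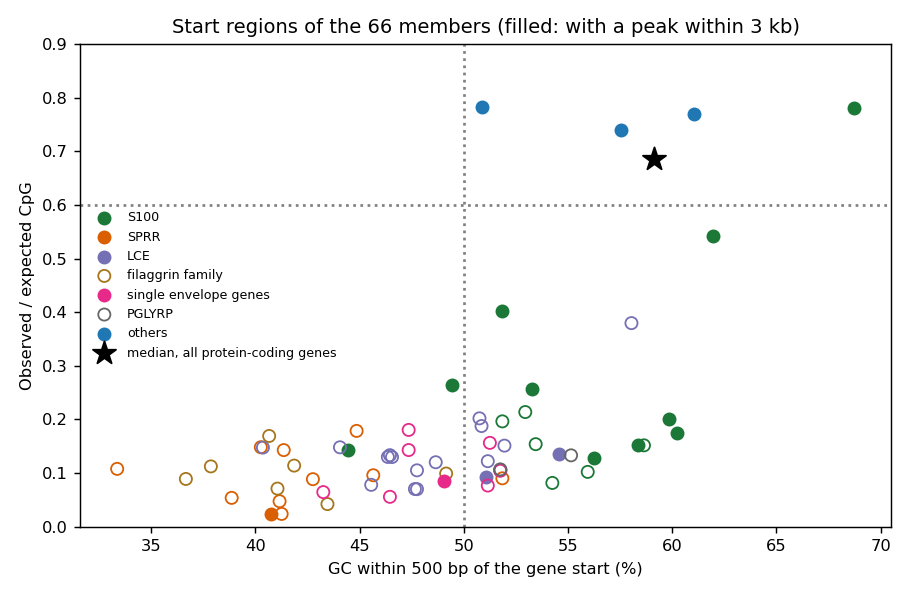
GC content (%, x axis) and observed over expected CpG (y axis) in the 500 bp to each side of the gene start for each of the 66 members, coloured by group and filled where a peak was called within 3 kb in at least 1 library. The star is the median of all protein-coding genes and the dotted lines are the limits for a CpG-rich start. Of the members, 4 lie in the CpG-rich corner and all 4 are filled.

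Of the 16 S100 genes, 10 had a peak near a start site in at least 1 library. In HET-1A library 2 it was 8 of them (50%, 28.0 to 72.0), beside 35.3% of all genes, in KYSE-30 library 6 it was 6 (37.5%, 18.5 to 61.4), beside 28.6%, and in KYSE-30 library 4 it was 1. Both intervals included the share of all genes. All but 1 of the 16 starts are CpG-poor, and both intervals lay above the 20.3% and 15.9% of CpG-poor genes. The CpG-rich one, S100A10, was among the 6 in KYSE-30 library 6, and the share without it was not taken. Some neighbouring S100 genes were counted through the same peak. The S100 genes lie at both ends of the window, with S100A10 and S100A11 at the proximal end. S100A11, also called calgizzarin, had a peak in 3 libraries just upstream of the start of a longer transcript, 11 kb from its canonical start. The fold enrichment there, the tags at the summit over the local background with 1 added to each, was 5.10 in HET-1A library 2 and 3.41 and 5.51 in the KYSE-30 libraries 4 and 6. Since the libraries differ in depth, the summit height was also expressed as tags over the genome background of the library, and was 10.5, 7.61 and 16.1 respectively. The summits lay at -280, -415 and -285 bp from this start, so the same site was called in both lines. KYSE-30 library 6 had a further peak in an intron, at 2280 bp from the canonical start, with a fold enrichment of 4.32. S100A10, the annexin A2 partner p11, had peaks in KYSE-30 library 6 alone. They lay at 1263 and 4211 bp inside the gene from its canonical start, at -18 and 2930 bp from the nearest annotated start, with fold enrichments of 4.53 and 4.69 and heights of 14.1 and 13.4. Its CpG-rich canonical start itself carried no peak.

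The other 14 S100 genes lie near the distal end. S100A12, a calgranulin of neutrophils and inflamed epithelium, had a peak in HET-1A library 2 at -71 bp from its start, with a fold enrichment of 4.42 and a height of 9.87. The neighbouring calgranulins S100A8 and S100A9 had none in any library, nor had psoriasin (S100A7) and S100A7A. S100A6, calcyclin, had a peak in KYSE-30 library 6 alone, at 2090 bp, with a fold enrichment of 4.24 and a height of 12.1. S100A5 and S100A3 had none.

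S100A4, a gene linked to cell motility, had a peak in both long lists. In HET-1A library 2 it held 47 tags, with a fold enrichment of 4.03 and a height of 14.1. In KYSE-30 library 6 it held 14 tags, with a fold enrichment of 3.46 and a height of 9.41. Its summits lay 650 and 388 bp inside the gene from the canonical start. S100A2, a p63 target of squamous basal cells, had 3 peaks in HET-1A library 2 and none in any other library. Their fold enrichments were 4.05, 3.43 and 3.21 and their heights 13.2, 11.1 and 10.5, and they lay -890, -1938 and -2838 bp from the canonical start, at upstream starts of other transcripts. S100A16 had 2 peaks in HET-1A library 2 alone, with fold enrichments of 3.82 and 2.74, and S100A14 was counted through the weaker of these, which lay 2711 bp from a start of its own. S100A13 and S100A1, which overlap in opposite directions, shared 1 peak in each of the long lists, with a fold enrichment of 4.67 and a height of 14.1 in HET-1A library 2 and of 4.89 and 10.8 in KYSE-30 library 6. The summits lay -54 and -38 bp from the canonical start of S100A13, and -367 and -383 bp from the nearest start of S100A1, which was counted through this peak.

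The local background around the distal S100 genes was raised in both long lists. Relative to the genome background, its median at the 9 peaks of HET-1A library 2 from S100A9 to S100A13 was 3.01 (2.0 to 3.30), against 1.81 over the window and 1.45 over the whole list. At the 3 peaks of KYSE-30 library 6 there it was 2.24 (1.67 to 2.34), against 1.77 over the window and 1.44 over the list. In that library the 4 peaks around S100A10 and S100A11 had a median of 2.36, against 1.58 at the 2 peaks of HET-1A library 2. At the LCE genes the medians were 1.37 at 3 peaks of HET-1A library 2 and 1.12 at 3 of KYSE-30 library 6. What raised it was not tested. A raised background lowers the fold enrichment of a peak of given height, as at S100A2 and S100A4.

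**Figure D4:**
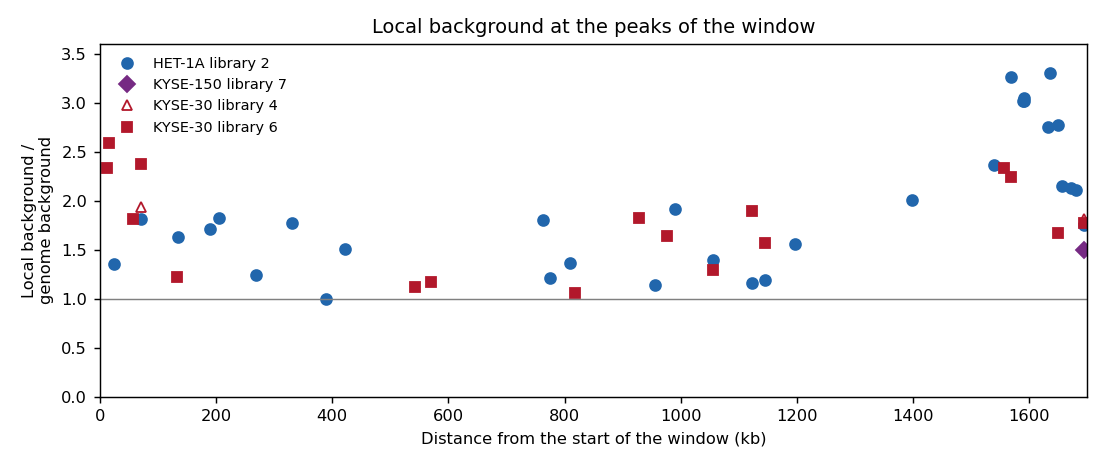
Local background at each of the 51 peaks of the window over that library's genome background (y axis) against distance from the start of the window in kb (x axis), with 1 marked by the line. In HET-1A library 2 (circles) the highest values, up to 3.30, lie at the distal S100 genes, and the lowest of KYSE-30 library 6 (squares), 1.06, at LCE1D.

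No member of the filaggrin family (TCHHL1, TCHH, RPTN, HRNR, FLG, FLG2 and CRNN) had a peak within 3 kb of its start in any library. All 7 have CpG-poor starts, and the upper bound of each 0% was 35.4%. In the 2 longest lists this lay above the 20.3% and 15.9% of CpG-poor genes and the 35.3% and 28.6% of all genes. The stretch of 394 kb these genes occupy was not without peaks: HET-1A library 2 had 7 and KYSE-30 library 6 had 1. The strongest lay at chr1:152140366-152140932 in an exon of FLG-AS1, a non-coding RNA that runs opposite to the filaggrin genes, -8815 bp from RPTN, with a fold enrichment of 5.21 and a height of 10.2 in HET-1A library 2. In the same library the peak at chr1:152280696-152281004 lay within FLG, in an exon and 16876 bp from the start, with a fold enrichment of 3.89. TCHH, which encodes trichohyalin of the hair follicle and tongue, had an exonic peak in HET-1A library 2 at 3912 bp (fold enrichment of 3.73) and another in KYSE-30 library 6 at 4296 bp (fold enrichment of 4.26), 22 bp apart, so that these did not overlap. The remaining 4 peaks of HET-1A library 2 lay in introns of FLG-AS1, with fold enrichments of 3.68 to 4.6. The long exons of FLG and HRNR are known to consist of tandem repeats.

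Of the 19 LCE genes, 17 had no peak within 3 kb in any library. In each of the 2 longest lists 1 had one (5.26%, 0.935 to 24.6), beside 35.3% and 28.6% of all genes. The interval covered the 20.3% and 15.9% of CpG-poor genes, the class of all LCE starts. LCE1E had a peak in HET-1A library 2 at 70 bp from its start, with a fold enrichment of 3.41, 18 tags and a height of 5.38. No peak of that library in the window was lower, and a peak upstream of HRNR had the same height. LCE1D, its neighbour, had a peak in KYSE-30 library 6 at -1778 bp, with a fold enrichment of 5.04, 12 tags and a height of 8.07. No peak at an LCE gene was called in more than 1 library. The 11 starts from LCE3E to C1orf68 lay in a gap of 193 kb without a peak in any library, and the 7 from LCE1D to SMCP in a gap of 111 kb. Since near-identical copies can share reads, repeated sequence was counted at each member. In the 300 bp around the start LCE2B shared 19.1% of its 50-base words with other places in the window, LCE2D 6.77% and LCE2C 5.98%. S100A7 and S100A7A shared 12.4%, PGLYRP3 and PGLYRP4 6.37%, and SPRR2B 4.78%. All other members were under 3%, and the part of repeated sequence in the missing peaks was not tested.

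Of the 8 genes grouped as single envelope genes (CRCT1, C1orf68, KPRP, SMCP, IVL, LELP1, PRR9 and LORICRIN), only IVL had a peak within 3 kb of its start. It was called in KYSE-30 library 6 at -2127 bp, with a fold enrichment of 6.72, 24 tags and a height of 16.1, the third highest fold enrichment of that library in the window. HET-1A library 2, with the longer list, had no peak there, nor had KYSE-30 library 4, so the peak was not called in the second library of its line. Of the 8 single envelope genes, HET-1A library 2 had a peak at none (0 to 32.4%) and KYSE-30 library 6 at 1 (12.5%, 2.24 to 47.1). These stood beside 35.3% and 28.6% of all genes. All 8 starts are CpG-poor, and the intervals covered the 20.3% and 15.9% of CpG-poor genes. The IVL gene is known for a far upstream control region with AP-1 and Sp1 sites, and the sequence printed for IVL holds an AP-1 core followed by the letters of a GC box. KPRP had peaks further upstream in HET-1A library 2, at -5597 and -17947 bp, with fold enrichments of 3.95 and 3.69. Loricrin, LELP1, PRR9 and both PGLYRP genes, which encode peptidoglycan-binding proteins of antibacterial defence, lay in the longest gap without a peak in any library, 200.6 kb at chr1:153147396-153347989.

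SPRR1B, also called cornifin B, was the only SPRR gene of 11 with a peak within 3 kb of a start, downstream of its end. In HET-1A library 2 this peak had a fold enrichment of 5.30 and a height of 8.67, and in KYSE-30 library 6 a fold enrichment of 6.51 and a height of 12.1, with summits at 1916 and 1942 bp. This was 9.09% of the SPRR genes in each list (1.62 to 37.7), beside 20.3% and 15.9% of CpG-poor genes. That interval also covered the 35.3% and 28.6% of all genes. SPRR2E was the nearest gene to a peak in both long lists, over 3 kb from its start sites, with a fold enrichment of 4.71 in HET-1A library 2 and of 7.07 in KYSE-30 library 6. Its heights of 6.58 and 17.5 were the farthest apart between these 2 libraries among the shared regions. Upstream of SPRR2F, a peak at -9525 bp in HET-1A library 2 had a fold enrichment of 5.00 and a height of 7.18, and its partner at -9512 bp in KYSE-30 library 6 had 5.39 and 11.4. SPRR4 had an upstream peak in HET-1A library 2 alone, at -3317 bp, with a fold enrichment of 4.72 and a height of 10.2. SPRR5 had a peak at 7378 bp in KYSE-30 library 6, with a fold enrichment of 5.81, and another at -14688 bp in HET-1A library 2, with 4.17. Peaks at the SPRR genes were thus mostly at a distance from their starts. The 65.6 kb between the peaks at SPRR4 and SPRR1B, which hold SPRR1A and SPRR3, had no peak in any library, and SPRR2D, SPRR2A and SPRR2B likewise lie in a gap without a peak.

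The 3 members outside these groups, all with CpG-rich starts, each had a peak. ILF2, the NF45 subunit of an RNA-binding complex with NF90, had the highest fold enrichment of the window in each of 4 libraries: 8.16 in HET-1A library 2, 3.85 in KYSE-150 library 7, and 4.73 and 8.24 in the KYSE-30 libraries 4 and 6. The heights were 16.4, 6.79, 10.1 and 19.5. It was the only member with a peak in a KYSE-150 library. CHTOP, a chromatin-bound partner of the arginine methyltransferase PRMT1, had a peak in HET-1A library 2 at -20 bp, with a fold enrichment of 6.60 and a height of 15.9. SNAPIN, which binds the SNARE protein SNAP25, had one in the same library at -61 bp, with 4.47 and 10.5. Neither had a peak in KYSE-30 library 6.

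Across libraries, 34 of the 41 regions had a peak in a single library, 24 of them in HET-1A library 2 and 10 in KYSE-30 library 6. The 7 others were shared by these 2 libraries, at S100A11, SPRR1B, SPRR2E, SPRR2F, S100A4, S100A13 and ILF2. They were 22.6% of the peaks of HET-1A library 2 in the window (11.4 to 39.8), beside 28.6% over its whole list, and 41.2% of those of KYSE-30 library 6 (21.6 to 64.0), beside 39.1%. Both intervals included the share of the whole list. Of the 7, the height was larger in KYSE-30 library 6 in 5 and larger in HET-1A library 2 at S100A4 and S100A13, where the raised background of HET-1A library 2 was given above. Over the whole lists, however, the median height was 7.48 in HET-1A library 2 and 11.4 in KYSE-30 library 6. The lowest height of a listed peak differed too, at 3.59 and 5.38. A larger height in KYSE-30 library 6 was thus not particular to the window, though these values include peaks that were not shared. Both KYSE-30 libraries had a peak at S100A11 and ILF2 only, and no region had a peak in both HET-1A or both KYSE-150 libraries.

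**Figure D5:**
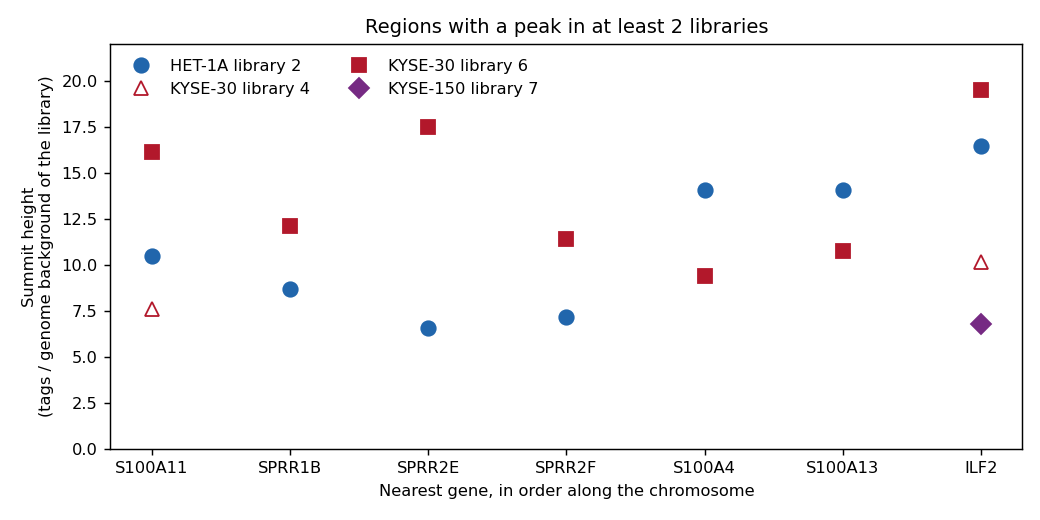
Summit height, the tags at the summit over the genome background of the library (y axis, no unit), in each library with a peak at the 7 regions called in at least 2 libraries, ordered along the chromosome and labelled by the nearest gene. KYSE-30 library 6 (squares) lies above HET-1A library 2 (circles) at 5 of 7, and the other way at S100A4 and S100A13.

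Motifs were searched on both strands in the peaks and in the start regions, from 250 bp before to 50 bp after each gene start. The AP-1 core, TGACTCA or TGAGTCA, was in 11 of the 31 window peaks of HET-1A library 2 (35.5%, 21.1 to 53.1), beside 24.7% of its whole list, and in 8 of 17 of KYSE-30 library 6 (47.1%, 26.2 to 69.0), beside 29.7%. In KYSE-30 library 4 it was in 1 of 2, at S100A11, and the KYSE-150 peak at ILF2 did not hold it. These intervals, too, included the shares of the lists, 24.7% and 29.7%. Over the window, 20 of the 51 peaks held the core, and in 14 of these it lay within 50 bp of the summit, with a median of 28.5 bp. A core in a region called in several libraries was counted once per peak. This distance was not compared with that over the whole lists, so it is no trait of the window. By region the core was in 16 of the 41, of which 8 were near start sites and 8 elsewhere. The peaks with a core included those at S100A11, S100A10, IVL, SPRR1B, SPRR4 and S100A2 printed above, whereas the shared peaks at S100A4, S100A13, SPRR2F and ILF2 held none. The CTCF core CCNNNAGNNGGC was in 3 window peaks of HET-1A library 2 (9.68%, beside 12.9%) and 1 of KYSE-30 library 6 (5.88%, beside 11%).

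In the start regions the AP-1 core was in 13 of the 66 members (19.7%), beside 3.57% of all protein-coding genes. It was in 7 of the 11 SPRR genes (SPRR1A, SPRR3, SPRR1B, SPRR2D, SPRR2A, SPRR2E and SPRR2F), in IVL, PRR9 and LORICRIN, and in S100A5, S100A3 and S100A2, but in none of the 19 LCE or 7 filaggrin family genes. The TATA box TATAAA was in 35 members (53.0%), beside 9.80% of all genes, and in 10 of the 11 SPRR, 5 of the 7 filaggrin family and 9 of the 19 LCE genes. The GC box GGGCGG was in 11 members (16.7%), beside 60.9%, and the CTCF core in 3 (4.55%), beside 12.9%. These motif shares were not split by CpG content, in which the members differ from all genes. Whether CpG-poor genes elsewhere have like shares was not tested, and genes of the same family were counted separately. The SPRR genes, then, had the most start regions with an AP-1 core and a TATA box, but a peak over none of them, since the peak of SPRR1B lies downstream. A motif match is a description of the letters, not of a bound factor.

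Genes with a role in cornification also lie outside the window. Of 20 such genes, 5 (25%, beside 35.3% of all genes) had a peak within 3 kb of a start in HET-1A library 2, namely CSTA, which encodes cystatin A, PPL and EVPL, which encode the envelope plakins periplakin and envoplakin, CNFN and the desquamation protease KLK7, with fold enrichments of 3.63 to 5.30. In KYSE-30 library 6, 2 (10%, beside 28.6%) had one, EVPL with a fold enrichment of 3.83 and KRTDAP with 4.19. The transglutaminase genes TGM1, TGM3 and TGM5 had none. Among 15 regulators of epidermal differentiation, HET-1A library 2 had peaks at GRHL3, ELF3, GRHL1, KLF4 and NOTCH1, and KYSE-30 library 6 had them at ELF3, GRHL1 and GRHL2. These were 33.3% and 20% of the regulators, beside 35.3% and 28.6% of all genes. The 4 S100 genes on other chromosomes had none. Of a list of 10 epithelial markers, not all particular to squamous cells, 4 had a peak in HET-1A library 2 (SFN, EPCAM, DSP and KRT6A). In KYSE-30 library 6 it was 2 (EPCAM and GRHL2), which are not particular to squamous cells. TP63, KRT5, KRT14, SOX2 and CDH1 had none in any library. These shares of 40% and 20% stood beside 35.3% and 28.6% of all genes. FN1 in HET-1A library 2 and VIM in KYSE-30 library 6 were the mesenchymal genes with a peak, of 6, and none of 4 immune genes had one. The mesenchymal share was 16.7% in each of these libraries, 1 gene of 6, beside 35.3% and 28.6% of all genes. No interval was taken for these lists, so their shares were not told apart from those of all genes. None of these lists had a peak in the other 4 libraries, which listed few peaks.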

How the data were processed

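ATAC-seq peak lists of 6 libraries (2 per line) were used. The authors mapped reads to hg19 with Bowtie2 2.3.3.1, marked duplicates with Picard 2.2.1, removed blacklisted regions with bedtools 2.7.1, selected fragments shorter than 100 bp and ran MACS2 2.1.0.20160309 on every library (q-value of 0.05, shift of -100, extension to 200 bp, no control, no pooling). The deposited lists give a score, a fold enrichment (a ratio to the local background), -log10 of the p-value and q-value, and the summit position. Read totals are not analysed here.

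Summit tags and local background were recovered from each peak's fold enrichment and Poisson p-value, with a tolerance of 0.001 in -log10 p, for at least 99.6% of every list, and the recovery was tested on simulated data. Summit height was devised after the data were seen. The fewest tags of a listed peak at the genome background were 8 to 13, by library. Start sites came from GENCODE 44 lifted to hg19, overlap was 1 bp, and Python 3.11.15, pandas 2.3.3, pysam 0.24.0 and scipy 1.17.1 were used. Named were every member with a peak within 3 kb of a start site, every region shared by at least 2 libraries and the 5 peaks of highest fold enrichment per library, with groups of members without a peak counted. Peaks named beyond these, the repeated words and the gaps were chosen after their values were seen. The members and lists were chosen with earlier results of these data known. The sequence of 1 shared region is not reported here. The labels call the libraries biological replicates. Alternatives were stricter q-values, equal numbers of peaks, merged peaks, other promoter definitions, a narrower window, other overlaps, each library left out, 200 bp around summits and another background reference.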

Additional observations from a re-analysis of the deposited data

How the results depend on the processing

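Of the values computed under an alternative, 77 kept within their limits and 24 moved. The limit was a set ratio to the main value, or the 95% interval for AP-1 shares. Many of the 77 had no room to move. HET-1A library 1 and KYSE-150 library 8 had no peak in the window, and their counts stayed 0 throughout. The tally is therefore no measure of robustness. With the 168 peaks of smallest p-value per library, the window kept 1 peak in HET-1A library 2 and 0 in KYSE-150 library 7, KYSE-30 library 4 and KYSE-30 library 6, and the members with a peak were 1, 0, 0 and 0. Without the S100 clusters and the other genes, HET-1A library 2 had 16 peaks, the KYSE-30 libraries 6 and 4 had 9 and 0, and KYSE-150 library 7 had 0. At a q-value under 0.001, KYSE-30 library 4 had 1 peak and 1 member. With each peak assigned to the nearest start site, 25 members had a peak in HET-1A library 2. With a promoter of 1 kb, 6 members had one in KYSE-30 library 6. With the canonical start only, an alternative chosen after seeing the data, KYSE-30 library 4 had 1 member. These changes follow from fewer peaks, a narrower window or another start definition. Counting a peak in either library gave 31 regions in HET-1A, 1 in KYSE-150 and 17 in KYSE-30, and an overlap of 50% of each peak gave 1 in KYSE-30. Leaving out each library in turn gave 0 to 31 regions in HET-1A, where library 2 held all of them, 0 to 1 in KYSE-150, where library 7 held it, and 2 to 17 in KYSE-30, where library 6 held 17. AP-1 shares stayed within their 95% intervals. With the library median as reference, the median relative background of the window peaks fell to 1.24 in HET-1A library 2 and 1.23 in KYSE-30 library 6. Both values lay within the range of these peaks under the main setting. In KYSE-30 library 4 it went from 1.87 to 1.32, under the 1.81 to 1.94 of its 2 peaks. KYSE-150 library 7 had a single peak there, so its change could not be set against a spread. No paired analysis was possible because the libraries of different lines share no replicate number and no test was run. In the 4 short lists at most 2 members had a peak, and the lack of a call there does not show that a member was closed. Why these lists were short was not tested.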

Other observations

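The neighbourhood of the complex was counted in flanks of 1.7 Mb on each side. In HET-1A library 2 the proximal flank, with 54 protein-coding genes, held 48 peaks and the distal flank, with 60 genes, held 50, against 31 in the window with its 66 genes. In KYSE-30 library 6 the counts were 18 and 14 against 17 in the window. In KYSE-30 library 4 they were 4 and 2 against 2, and in KYSE-150 library 7 they were 1 and 0 against 1. HET-1A library 1 and KYSE-150 library 8 had no peak in any of the 3 windows. The window thus held fewer peaks than either flank in HET-1A library 2 but not in KYSE-30 library 6, and this difference between libraries was not tested. The distal flank of HET-1A library 2 also had a raised local background, with a median of 2.66 times the genome background against 1.83 in KYSE-30 library 6.

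At the members, the longer list was not the only one with peaks of its own. IVL, S100A10, S100A6 and LCE1D had a peak near a start in KYSE-30 library 6 and not in HET-1A library 2, while S100A2, S100A16, S100A14, S100A12, LCE1E, CHTOP and SNAPIN had one in HET-1A library 2 and not in KYSE-30 library 6. Most peaks of the whole lists were unshared too: 28.6% of HET-1A library 2 peaks overlapped a KYSE-30 library 6 peak, and 39.1% the other way. Peaks in only 1 of these lists are therefore no trait of the members. Since the second library of each line listed few peaks, library and line cannot be told apart for the members named.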
